A study of Mus musculus with 10 samples.

Results

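A set of 8 genes that carry or time the cardiac impulse was followed in hearts of *Rit1* M90I/+ mice given a MEK inhibitor or vehicle control. They were taken by name from the deposited expression table, and each of the 8 names matched 1 of its 54532 genes. The set holds 3 connexins (*Gja1*, *Gja5* and *Gjc1*), 1 sodium channel subunit (*Scn4b*), 2 pacemaker channels (*Hcn2* and *Hcn4*) and 2 T-type calcium channels (*Cacna1g* and *Cacna1h*). In *Gja1* and *Scn4b* the group means lay farthest apart relative to their error: *Gja1* was 1.51-fold higher in MEKi-treated hearts and *Scn4b* stood at 0.537 of its vehicle mean. *Hcn4* was also lower with MEKi, and the other 5 genes differed by less than the spread between hearts. None of the 8 passed the test after adjustment over all genes.

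RNA-seq was performed on 5 vehicle control and 5 MEKi-treated hearts from a Noonan syndrome model, a developmental disorder of RAS-MAPK signaling that often includes thickening of the heart. Treatment with trametinib, an allosteric inhibitor of MEK1 and MEK2, began at an age of 4 weeks and lasted 20 weeks, with a daily dose of 1 mg/kg. The last dose was given 2 hours before the hearts were collected. All 10 mice carried 1 copy of the *Rit1* M90I variant, which came from a conditional allele crossed to a cytomegalovirus-Cre deleter line, so that the variant was not limited to heart cells. No heart without the variant was sequenced here, and the labels name the tissue as heart with no chamber.

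The heartbeat starts in the sinus node, crosses the atria and the atrioventricular node, and spreads through the bundle branches and Purkinje fibers to the working ventricle. HCN channels open on hyperpolarization and pass the inward current that helps to pace nodal cells, T-type calcium channels add current at voltages near rest, and connexins form the gap junctions through which the impulse passes from cell to cell. In bulk tissue, fewer cells of a type and less RNA per cell cannot be told apart.

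Levels are given as FPKM, fragments normalized by gene length and library size, and the fragments behind each value were recovered from the table. Genes received 13647167 to 16659254 fragments in the vehicle libraries and 14868373 to 18474002 in the MEKi libraries, of which mitochondrial genes took 24.7 to 35.0% and 24.0 to 28.7%. Differences are MEKi minus vehicle on the log2(FPKM + 0.1) scale, tested with limma over the 12602 genes whose mean reached 0.5 FPKM, and this scale understates the difference of genes with low FPKM. *Xist* did not exceed 0.00662 FPKM in any vehicle heart and averaged 5.86 ± 0.671 FPKM (SD, n = 5) with MEKi, while the Y-linked *Ddx3y*, *Eif2s3y*, *Uty* and *Kdm5d* were listed at 0 in every MEKi-treated heart. Treatment and these sex-linked transcripts divide the 10 hearts in the same way, so for every gene below an effect of trametinib and of sex cannot be told apart.

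The tissue label held: summed FPKM of 8 cardiomyocyte markers was 12050 to 15270 with vehicle and 11560 to 15580 with MEKi. Markers of conduction tissue ranged widely. *Isl1*, a sinus node transcription factor, was at 0 in every MEKi-treated heart and at no more than 2 fragments in any heart, and the Purkinje fiber marker *Cntn2* ran from 0.144 to 1.39 FPKM, while *Smoc2* averaged 14.3 FPKM in vehicle and 18.2 FPKM in MEKi-treated hearts. The atrial share was uneven. Summed FPKM of 6 atrial markers reached 898 in vehicle 4, 423 in vehicle 5 and 740 in MEKi 2. In the other 7 hearts it was 13.7 to 59.0. Vehicle 4 and vehicle 5 also held summed blood and immune markers of 21080 and 23850 against 2704 to 6925 elsewhere. Most of this was haemoglobin, with *Hbb-bs* at 13900 and 14000 FPKM and *Hba-a1* at 7014 and 9642 FPKM. The immune marker *Cd68* was lowest of the vehicle hearts in vehicle 4 (6.57 FPKM) and highest in vehicle 5 (14.8 FPKM).

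The 8 genes covered a wide range of levels. Over all 10 hearts *Gja1* averaged 28.9 FPKM and *Hcn2* 15.5, followed by *Scn4b* at 4.26, *Gjc1* at 3.70 and *Gja5* at 2.17, with *Cacna1g* at 0.963, *Hcn4* at 0.854 and *Cacna1h* at 0.797. *Gja1* exceeded *Hcn2* in 10 of 10 hearts and *Hcn2* exceeded *Scn4b* in 10 of 10. Some neighbors in this order were not separated over both groups together. *Scn4b* was above *Gjc1* in 5 of 10 hearts, *Cacna1g* above *Hcn4* in 6 of 10 and *Hcn4* above *Cacna1h* in 6 of 10. The hearts were not spread evenly over the groups. *Scn4b* was above *Gjc1* in vehicle 1, 2, 3 and 4 and MEKi 1, and *Cacna1g* above *Hcn4* in vehicle 1 and 5 and MEKi 1, 2, 3 and 4.

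**Figure D1:**
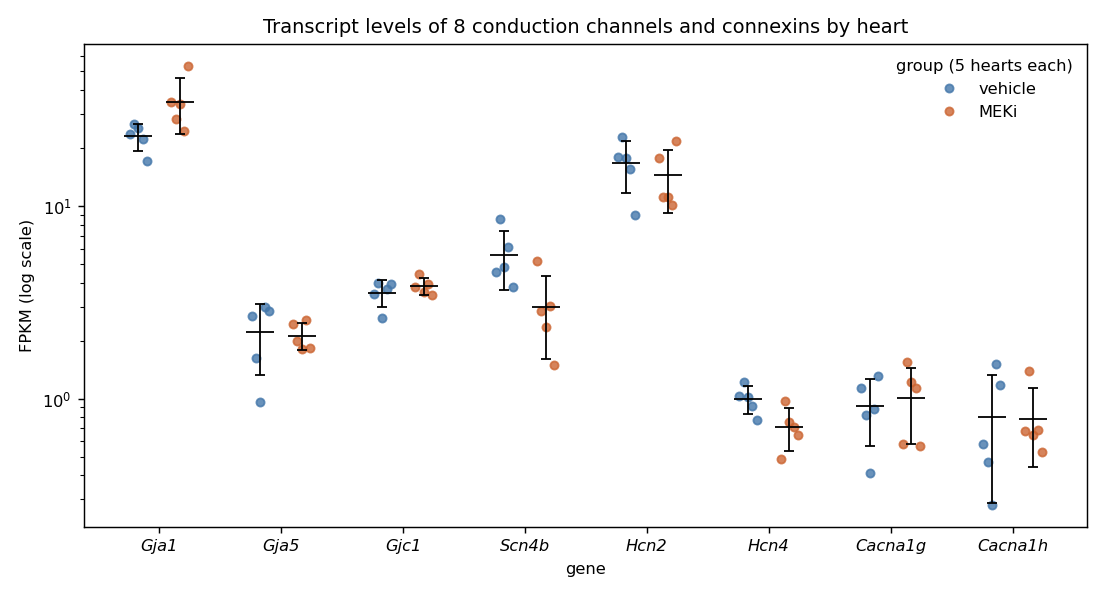
FPKM of the 8 genes in each heart on a log scale, with vehicle (blue) and MEKi (orange) hearts as points and the mean ± SD of 5 hearts as black bars. The groups overlap in every gene, with *Gja1* between 17.2 and 26.7 FPKM in vehicle hearts and between 24.4 and 53.3 with MEKi.

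By limma with Benjamini-Hochberg adjustment, 0 of the 8 genes had an adjusted p under 0.05, where 0.0794% of all genes tested did. At an unadjusted p under 0.05 there were 3 of 8 (*Gja1*, *Scn4b* and *Hcn4*), where 7.62% of all genes passed, and voom on the recovered fragments also gave 0 and 3. The count of 3 was not stable: *Hcn4* kept an unadjusted p under 0.05 in 9 of 22 alternative settings, against 22 of 23 for *Gja1* and 22 of 22 for *Scn4b*. The exact permutation test over hearts, two-sided and with 0.00794 as its smallest possible p, gave 3 of 8 at p under 0.05, where 7.42% of all genes passed. In 0 of the 8 genes were the groups free of overlap, as they were in 1.64% of all genes. Of the 8 differences, 5 were above 0 and 3 below, with a median of 0.07 against 0.01 for all genes tested.

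**Figure D2:**
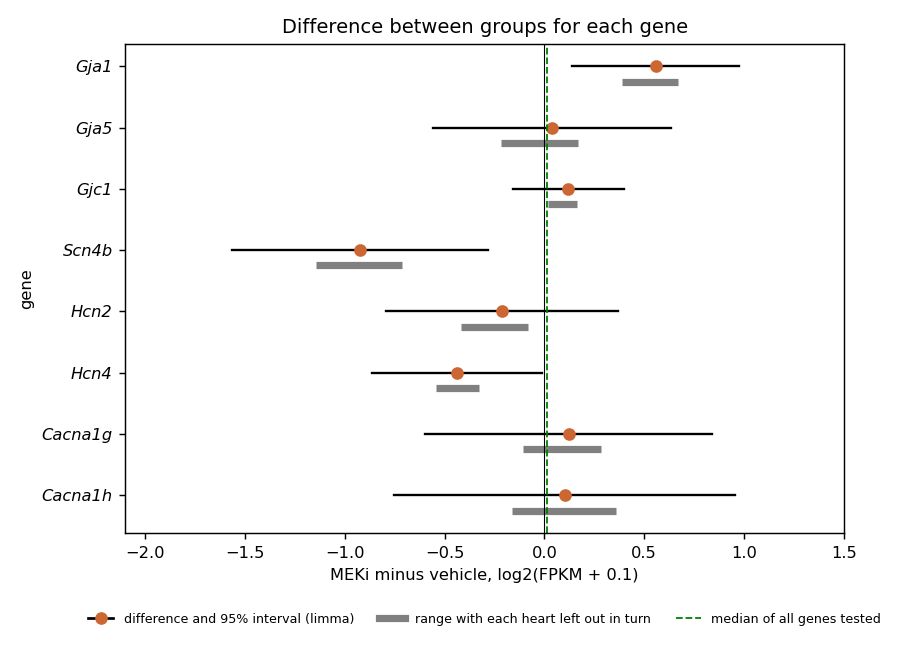
Difference between groups for each gene in log2(FPKM + 0.1), with the 95% interval from limma (black), the range when each heart was left out in turn (grey) and the median of all genes tested (dashed line). The intervals of *Gja1*, *Scn4b* and *Hcn4* exclude 0, and those of the other 5 genes include it.

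Among the connexins, *Gja1* encodes Cx43, the main gap junction protein of working ventricular muscle. It lies on chromosome 10 from 56377330 to 56402513, forward strand (coordinates here are GRCm38). Its level was 23.7, 26.7, 25.3, 22.3 and 17.2 FPKM in vehicle hearts 1 to 5 and 34.5, 28.1, 33.6, 24.4 and 53.3 FPKM in MEKi-treated hearts 1 to 5. In 4 of the 5 MEKi-treated hearts it was above every vehicle heart, MEKi 4 lay among them, and MEKi 5 stood well above the rest. Vehicle hearts averaged 23.0 ± 3.67 FPKM (SD, n = 5) against 34.8 ± 11.1 FPKM with MEKi, a difference of 0.56 (SE 0.19, 95% interval 0.14 to 0.98) with a limma adjusted p of 0.517 after Benjamini-Hochberg adjustment. The exact permutation p was 0.0238. Without MEKi 5 the difference was 0.39, which remained above 0 with an interval of 0.06 to 0.72.

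*Gja1* supplied the largest share of connexin transcript in each heart. Of the summed FPKM of 20 connexin genes, of which 4 were at 0 in every heart, it took 43.9 to 63.8% in vehicle hearts and 53.3 to 73.5% with MEKi. The next were *Gja4*, the connexin of arterial endothelium, with a mean share of 17.4% in vehicle and 14.7% in MEKi-treated hearts, and *Gja3*, with 9.90 to 12.7% in vehicle and 8.77 to 11.2% in MEKi-treated hearts. These shares overlapped between the groups in each gene.

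**Figure D3:**
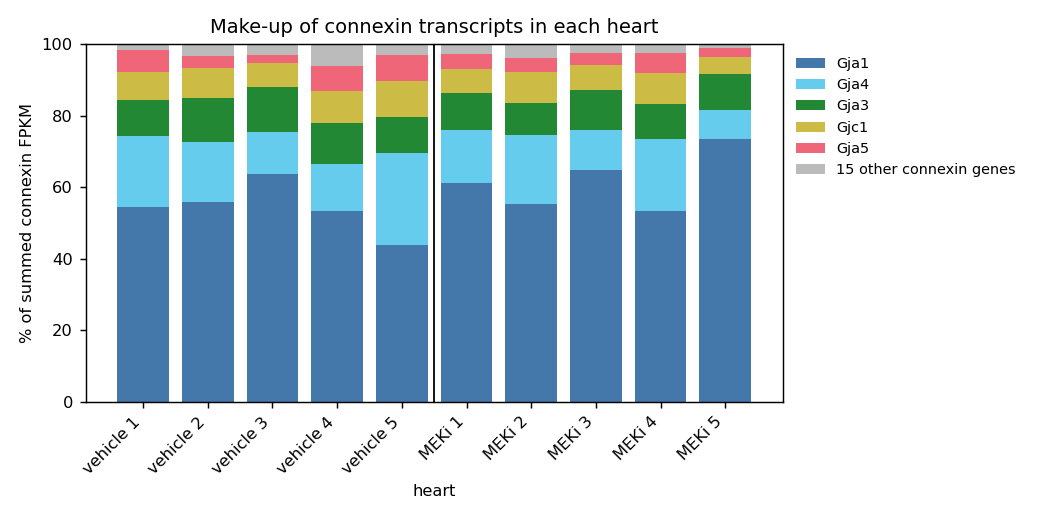
Share of the summed FPKM of 20 connexin genes taken by *Gja1*, *Gja4*, *Gja3*, *Gjc1*, *Gja5* and the 15 other connexin genes in each heart, as stacked bars that add up to 100%. *Gja1* is the largest share in each bar, with a mean of 61.6% in MEKi-treated hearts.

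Neither of the other connexins had an interval that excluded 0. *Gja5* encodes Cx40, the connexin of atrial muscle, the proximal conduction system and arterial endothelium, and it lies on chromosome 3 from 96904693 to 97077416, forward strand. Its level was 2.67, 1.62, 0.955, 2.99 and 2.83 FPKM in vehicle hearts and 2.44, 2.00, 1.80, 2.55 and 1.84 FPKM in MEKi-treated hearts. The MEKi-treated hearts all lay inside the vehicle range, in which vehicle 3 was the lowest. The difference was 0.04 (95% interval −0.56 to 0.64, exact permutation p = 0.897), and it turned to −0.22 without vehicle 3. From start to end *Gja5* overlaps *Gpr89* and other genes, the highest of which averaged 2.27 FPKM. Whether their exons overlap was not examined. Since no strand setting for the counting is given, fragments in any shared exon sequence cannot be assigned to one or the other.

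*Gjc1* encodes Cx45, the connexin of the nodes, and lies on chromosome 11 from 102799579 to 102819700, reverse strand. It was at 2.61 to 3.99 FPKM in vehicle hearts and at 3.46 to 4.43 FPKM with MEKi. The difference was 0.12 (95% interval −0.16 to 0.40, limma adjusted p = 0.864), the narrowest interval of the 8 genes. Relative to *Gja1* in the same heart, *Gja5* averaged 0.102 in vehicle and 0.0668 in MEKi-treated hearts and *Gjc1* averaged 0.159 and 0.120, and in each ratio 1 of the 5 MEKi-treated hearts fell below all vehicle hearts.

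*Scn4b* encodes the sodium channel β4 subunit, a membrane protein that joins the pore-forming subunit and alters its gating. It lies on chromosome 9 from 45138395 to 45154152, forward strand. Its level was 4.52, 8.53, 4.80, 6.10 and 3.78 FPKM in vehicle hearts and 5.19, 2.85, 2.35, 3.02 and 1.49 FPKM in MEKi-treated hearts. In 4 of the 5 MEKi-treated hearts it was below every vehicle heart, whereas MEKi 1 lay in the middle of the vehicle range. Vehicle hearts averaged 5.55 ± 1.87 FPKM (SD, n = 5) against 2.98 ± 1.37 FPKM with MEKi, a difference of −0.93 (SE 0.29, 95% interval −1.57 to −0.28) with a limma adjusted p of 0.476 after Benjamini-Hochberg adjustment. The exact permutation p was 0.0318 on the log2 scale and 0.0556 on ranks. In size this was the largest difference of the 8 genes, and 1.76% of all genes tested had a larger one in either direction.

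Of 13 other sodium channel subunit genes 4 were tested, and none had an unadjusted limma p under 0.05 or an adjusted one, with a median difference of −0.10. *Scn7a* was at 2.97 to 4.62 FPKM in vehicle and 2.56 to 4.13 FPKM in MEKi-treated hearts.

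*Hcn4* encodes the main pacemaker channel of the sinus node and lies on chromosome 9 from 58823412 to 58863175, forward strand. Its level was 1.03, 1.22, 1.02, 0.916 and 0.775 FPKM in vehicle hearts and 0.486, 0.972, 0.757, 0.713 and 0.645 FPKM in MEKi-treated hearts. All MEKi-treated hearts but 1, MEKi 2, were below every vehicle heart. MEKi 3, with 68 fragments, and vehicle 5, with 69, lay within counting error of each other. The difference was −0.44 (SE 0.20, 95% interval −0.87 to −0.01) with a limma adjusted p of 0.640 after Benjamini-Hochberg adjustment and an exact permutation p of 0.0318. These values rest on 51 to 108 fragments, and at 51 fragments counting alone gives a coefficient of variation of 14.0%, against 16.6% between vehicle hearts and 24.7% between MEKi-treated hearts. Without the 3 hearts with high atrial markers the difference was −0.68 (95% interval −1.16 to −0.20, limma adjusted p = 0.743). The hearts left out were vehicle 4 and vehicle 5, the lowest vehicle hearts for *Hcn4*, and MEKi 2, its highest MEKi-treated heart. Leaving them out had to widen the difference. With the atrial marker score as a covariate the difference was −0.41 with an interval that included 0 (−0.87 to 0.05). The interval without MEKi 5 also included 0 (−0.88 to 0.06).

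*Hcn2*, the pacemaker channel family member of ventricular muscle, was more abundant than *Hcn4* and more scattered relative to the difference between groups. It lies on chromosome 10 from 79716634 to 79736108, forward strand. Its level was 17.9, 22.9, 17.8, 15.6 and 9.01 FPKM in vehicle hearts and 17.8, 11.1, 11.1, 10.1 and 21.8 FPKM in MEKi-treated hearts. Each group held hearts near 10 and hearts near 20 FPKM, and the difference was −0.21 (95% interval −0.79 to 0.37, exact permutation p = 0.484). *Hcn4* was 0.0627 ± 0.0132 of *Hcn2* in vehicle hearts and 0.0566 ± 0.0267 in MEKi-treated hearts.

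Vehicle 5 was the lowest vehicle heart for *Gja1*, *Scn4b*, *Hcn2* and *Hcn4*. It also held the highest summed blood and immune markers. Without it the differences were 0.46 for *Gja1*, −1.05 for *Scn4b*, −0.42 for *Hcn2* and −0.52 for *Hcn4*. For *Scn4b*, *Hcn2* and *Hcn4*, which were lower with MEKi, leaving out the lowest vehicle heart could only widen the difference. For *Gja1* it could only narrow it, from 0.56.

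The promoters of *Gja1* and *Hcn4* are shown because these genes differed in opposite directions and because their start in RefSeq lies outside the deposited gene's body, so that the window is not transcribed sequence of that gene. Each window holds the 250 bases before the start, from RefSeq on GRCm38.p6, and capitals mark a match to an AP-1 motif, the letters TGANTCA, a factor that acts downstream of MAPK signaling.
Gja1 (chr10:56377050-56377299, forward strand): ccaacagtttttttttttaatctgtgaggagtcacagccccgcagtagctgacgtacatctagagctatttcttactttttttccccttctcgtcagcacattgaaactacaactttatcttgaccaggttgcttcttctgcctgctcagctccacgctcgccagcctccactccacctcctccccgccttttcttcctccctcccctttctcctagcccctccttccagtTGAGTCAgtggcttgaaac
Hcn4 (chr9:58822699-58822948, forward strand): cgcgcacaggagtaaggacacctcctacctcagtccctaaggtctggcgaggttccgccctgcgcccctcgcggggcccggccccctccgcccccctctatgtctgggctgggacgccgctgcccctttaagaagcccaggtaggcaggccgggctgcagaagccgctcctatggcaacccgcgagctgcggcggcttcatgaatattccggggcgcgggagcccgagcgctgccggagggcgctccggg

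The *Gja1* window held 1 AP-1 match, whose first base is 19 bases before the start, and the *Hcn4* window held none. Windows were found for 5 of the 8 genes, *Gja1*, *Gja5*, *Scn4b*, *Hcn2* and *Hcn4*, and *Gja1* was the only one of them with an AP-1 match, on either strand. No window of the 5 held the T-box letters AGGTGTG or the ETS letters CCGGAAG. Among 32851 windows of 27025 genes, 6.75% held the AP-1 letters, 5.11% the T-box letters and 6.91% the ETS letters. A match describes the letters and no binding was measured.

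The T-type calcium channels had the largest residual SD of the 8 genes on the log2 scale. *Cacna1h*, on chromosome 17 from 25374285 to 25433783, reverse strand, encodes the pore-forming α1H subunit. Its level was 0.584, 0.469, 0.281, 1.52 and 1.18 FPKM in vehicle hearts and 0.681, 1.40, 0.649, 0.687 and 0.528 FPKM in MEKi-treated hearts. The highest values were in vehicle 4, MEKi 2 and vehicle 5, which are the 3 hearts with high atrial markers, and the other 7 hearts ran from 0.281 to 0.687 FPKM. The same 3 hearts were the highest in 243 of the 12602 genes tested, or 1.93%. Between groups the difference was 0.10 (95% interval −0.75 to 0.95, limma adjusted p = 0.965), and without the 3 hearts it was 0.47 (95% interval −0.15 to 1.09). The residual SD of 0.69 was exceeded by 6.42% of genes, and counting error at the lowest value, 39 fragments, was 16.0% against 64.5% between vehicle hearts.

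*Cacna1g* encodes the related α1G subunit and lies on chromosome 11 from 94408391 to 94474198, reverse strand. Its level was 1.14, 0.821, 0.409, 0.886 and 1.31 FPKM in vehicle hearts and 0.581, 1.55, 1.22, 1.14 and 0.565 FPKM in MEKi-treated hearts. The groups overlapped almost fully, with a difference of 0.12 (95% interval −0.60 to 0.84, exact permutation p = 0.786). The 3 hearts with high atrial markers ran from 0.886 to 1.55 FPKM and the other 7 from 0.409 to 1.22 FPKM.

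The other genes were also set beside the atrial markers. *Gja5* ran from 2.00 to 2.99 FPKM in the 3 hearts and from 0.955 to 2.67 FPKM in the other 7, and *Gjc1* from 3.70 to 4.43 and from 2.61 to 3.99 FPKM. *Hcn2* was at 9.01 to 15.6 FPKM in the 3 hearts and 10.1 to 22.9 FPKM in the other 7. *Hcn4* did not stand out, with 0.775 to 0.972 FPKM in the 3 hearts and 0.486 to 1.22 FPKM in the other 7. *Shox2*, a sinus node and atrial transcription factor, was higher in the 3 hearts, at 0.810 to 1.22 FPKM against 0.141 to 0.276, and so was *Fgf12*, a sodium channel modulator, at 0.731 to 1.25 against 0.0410 to 0.154 FPKM. Without the 3 hearts the difference between groups was 0.47 for *Gja1*, with an interval that included 0 (−0.05 to 1.00) and −1.03 for *Scn4b* (−1.93 to −0.14). It was 0.38 for *Gja5* (−0.32 to 1.09) and −0.42 for *Hcn2* (−1.03 to 0.19). The hearts left out included vehicle 4 and vehicle 5, the highest vehicle hearts for *Gja5* and the lowest for *Gja1* and *Hcn2*. With 7 hearts the SE for *Gja1* was 0.23, against 0.19 with all 10. With the atrial marker score as a covariate in all 10 hearts, the differences were 0.49 for *Gja1* (0.06 to 0.92), −0.94 for *Scn4b* (−1.64 to −0.24), 0.45 for *Cacna1h* (−0.02 to 0.91), 0.32 for *Cacna1g* (−0.31 to 0.95), 0.18 for *Gja5* (−0.39 to 0.74), 0.20 for *Gjc1* (−0.04 to 0.44) and −0.32 for *Hcn2* (−0.90 to 0.25).

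**Figure D4:**
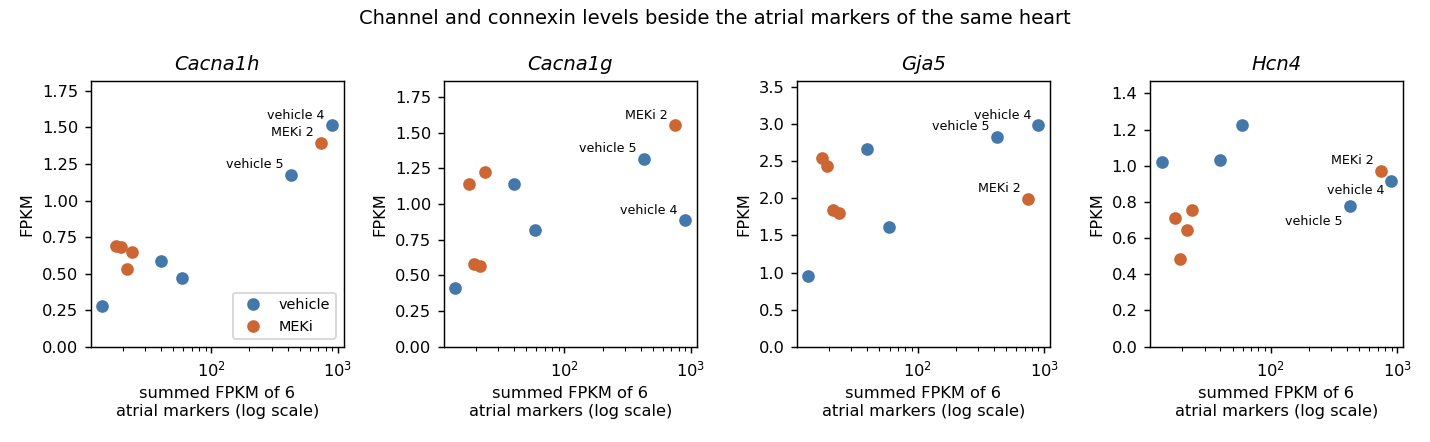
FPKM of *Cacna1h*, *Cacna1g*, *Gja5* and *Hcn4* in each heart against the summed FPKM of 6 atrial markers (log scale), with vehicle hearts in blue and MEKi-treated hearts in orange. Vehicle 4, vehicle 5 and MEKi 2 lie to the right and are the 3 highest hearts for *Cacna1h*, whereas for *Hcn4* they lie among the others.

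Vehicle 3 was the lowest of all 10 hearts for *Gja5*, *Gjc1*, *Cacna1g* and *Cacna1h*. It also had the lowest summed atrial markers, 13.7 FPKM, and the highest mitochondrial share, 35.0%. The part of the mitochondrial share in these values was not tested. For these genes, leaving out the lowest vehicle heart could only lower the difference. Without vehicle 3 the sign turned for 3 of them, to −0.22 for *Gja5*, −0.11 for *Cacna1g* and −0.16 for *Cacna1h*. *Gjc1* then stood at 0.02.

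**Figure D5:**
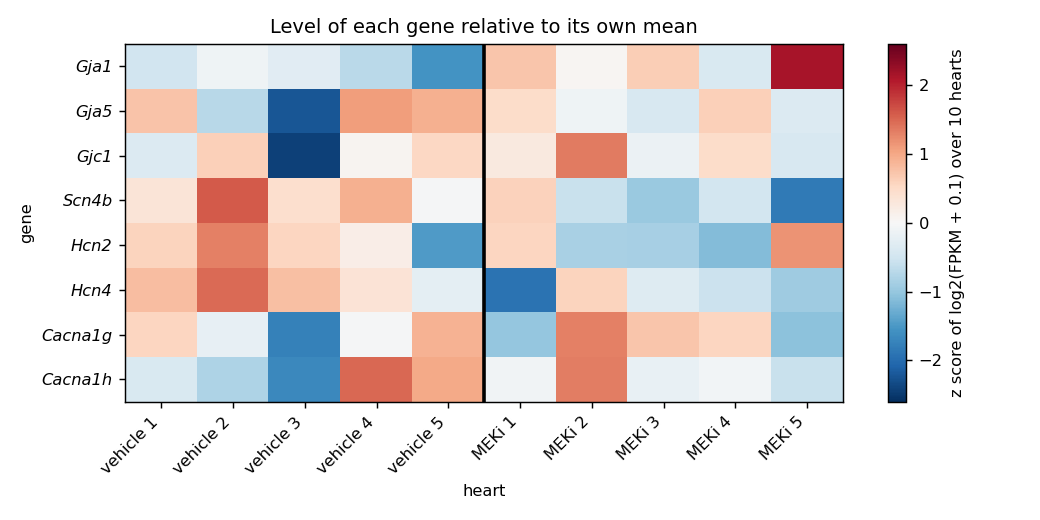
Level of each gene relative to its own mean, as the z score of log2(FPKM + 0.1) over 10 hearts, with a line between vehicle and MEKi hearts. Vehicle 3 is the lowest heart for *Gja5*, *Gjc1*, *Cacna1g* and *Cacna1h*, and MEKi 5 is the highest for *Gja1*.

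Genes with related roles were read from lists chosen for their function. None of their tested genes passed the limma test after Benjamini-Hochberg adjustment.

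Of 18 listed partners of the channels and connexins, 11 were tested and 2 had an unadjusted limma p under 0.05, where 7.62% of all genes did. *Gpd1l*, an enzyme known to affect sodium current, was at 10.1 ± 1.35 FPKM in vehicle and 12.1 ± 0.983 FPKM in MEKi-treated hearts, a difference of 0.27 (limma adjusted p = 0.569). Of 18 other HCN and calcium channel genes 6 were tested, with 0 at an unadjusted p under 0.05 and a median difference of 0.19. *Cacna1c*, the L-type channel of working muscle, was at 4.92 ± 0.941 FPKM in vehicle and 5.63 ± 0.465 FPKM in MEKi-treated hearts. Of 20 other connexin and pannexin genes 3 were tested, *Gja3* and *Gja4* among them, again with 0 at an unadjusted p under 0.05.

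After the sex-linked transcripts, with separate groups in 4 of 4 tested, the list of conduction system transcription factors gave the most such genes. Of 20 listed, 17 were tested, with 13 differences above 0 and 4 below. An unadjusted limma p under 0.05 was found for 4, where 7.62% of all genes had one. *Irx3*, a factor of fast ventricular conduction, was at 11.4, 12.4, 11.7, 10.9 and 6.82 FPKM in vehicle hearts and 15.8, 13.4, 15.3, 14.6 and 14.4 FPKM in MEKi-treated hearts. *Nkx2-5*, the cardiac homeobox factor on which the conduction system depends, was at 42.5 to 55.1 FPKM in vehicle and 57.4 to 65.4 FPKM in MEKi-treated hearts. Both were higher in every MEKi-treated heart than in any vehicle heart, as was *Mef2a*, with differences of 0.49, 0.30 and 0.31. *Tbx3*, which represses the working muscle program in the nodes, was at 1.18 ± 0.107 FPKM in vehicle and 0.859 ± 0.200 FPKM in MEKi-treated hearts, a difference of −0.44. The limma adjusted p of these 4 genes ran from 0.456 to 0.579, and groups without overlap in 3 of 17 stand beside 1.64% of all genes. The list held no member of the 8 genes and was chosen with results of these data known.

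No tested marker of conduction tissue had groups without overlap. Of 11 listed 4 were tested, with *Smoc2* alone (difference 0.37, adjusted p = 0.626) at an unadjusted limma p under 0.05, where 7.62% of all genes passed. *Cntn2* was at 0.811 ± 0.472 FPKM in vehicle and 0.506 ± 0.155 FPKM in MEKi-treated hearts.

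Markers of cells that could carry the connexin signal were read beside it. Of 8 arterial endothelial markers, all tested, *Hey1*, a Notch target, was at 4.66 ± 1.00 FPKM in vehicle and 2.74 ± 0.540 FPKM in MEKi-treated hearts (−0.74, limma adjusted p = 0.254), and 5 of 8 were higher and 3 lower with MEKi. A list of 8 endothelial markers summed to 140 to 238 FPKM in vehicle and 142 to 183 FPKM in MEKi-treated hearts, with a median difference of −0.14. Ventricular markers were higher with MEKi in 6 of 6 and atrial markers lower in 5 of 5 tested, with median differences of 0.32 and −2.23. Vehicle 4, vehicle 5 and MEKi 2 were the highest hearts for each of these 5, so they are not separate observations. At an unadjusted limma p under 0.05 there were 1 of the 6 and 0 of the 5, where 7.62% of all genes passed. The interval of *Sln* ran from −7.12 to 2.28. Fibroblast, smooth muscle, nerve and blood markers had medians of 0.04, −0.19, 0.16 and −0.41. For *Gja1*, *Scn4b* and *Hcn4*, the fits that take the atrial markers into account are given above. How much of each difference came from atrial tissue or from other cell types was not tested.

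For each gene, the 3 tested genes with the most similar pattern were those with the smallest mean absolute difference of z scores over the 10 hearts. For *Gja1* they were *Magi3* (0.258), *Cnst* (0.283) and *Polr2m* (0.289), and for *Scn4b* they were *Nmb* (0.258), *Tspan9* (0.289) and *Chrd* (0.326). *Hcn4* had the least similar neighbors, *Ttc13* (0.351), *Qsox2* (0.354) and *Clp1* (0.402). *Cacna1h* had the closest, *Entpd2* (0.198), followed by *Sbk3* (0.250) and *Mgp* (0.290). These values are descriptions over 10 hearts that share a tissue and differ in atrial content.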

How the data were processed

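The authors deposited 1 table of FPKM, fragments normalized by gene length and library size, with 1 column per heart. Per the submitters' processing notes, fastp, STAR 2.5 and HTSeq 0.6.1 were used with the mm10 build, and the counting's strand setting is not given in the sources used here. Messenger RNA was selected by poly(A). Gene coordinates match GENCODE M21 for 98.3% of 54409 genes with an identifier there, and for all 8 genes described here. The product of FPKM and gene length came in whole multiples of 1 step per heart (tolerance 0.01), and dividing by it gave the fragments behind each value. Counting error at these fragments covers counting only. The p-values set the difference between groups against the spread between hearts of a group, labelled as biological replicates.

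Samples were grouped by their labels. From the FPKM, log2(FPKM + 0.1) was computed for genes whose mean reached 0.5 FPKM. The groups were compared with limma (version 3.58.1, R version 4.3.3, eBayes with a trend), two-sided, and p-values were adjusted by the Benjamini-Hochberg method with 0.05 as threshold. The exact permutation test compared group means over every way to divide the 10 hearts into groups of 5. Per-heart values were handled with pandas 2.3.3, numpy 2.4.6 and scipy 1.17.1 (Python 3.11.15). The fit was tested on simulated data.

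The 8 genes and the context lists were chosen with earlier results of these data known. The genes named are the 8 members, at most 4 per context list with the smallest p or, for cell types, the highest level, and the 3 genes most similar to a member in pattern. *Isl1*, *Cntn2*, *Cacna1c*, *Shox2* and *Fgf12* are named for their role, and some genes of the context lists are not reported here. Alternatives were pseudocounts, filters, scalings, eBayes settings, array weights, the replicate number as a block, each heart left out, atrial markers as a covariate, and removal of sex-linked and mitochondrial chromosomes. Voom on recovered fragments was added after seeing the data.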

Additional observations from a re-analysis of the deposited data

Results flagged for a closer look

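In 4 of 46 groups of 5 hearts examined, 1 heart stood far from the other 4 by Dixon's criterion, where chance gives about 2.3. *Cacna1h* was at 1.397 FPKM in MEKi 2, against 0.528 to 0.687 FPKM in the other MEKi-treated hearts. In the same heart the atrial markers had a mean log2(FPKM + 0.1) of 6.30, against 0.18 to 1.21 in the other MEKi-treated hearts. In vehicle 5 the ventricular markers had a mean of 5.60 on this scale, against 6.07 to 6.14 in the other vehicle hearts. In MEKi 5, the heart with the highest *Gja1*, the endothelial markers had a mean of 4.05, against 4.33 to 4.42 in the other MEKi-treated hearts.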

How the results depend on the processing

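None of the 8 genes had an adjusted p under 0.05 in any setting that tested it. With a mean of at least 5 FPKM 2 were tested, *Gja1* and *Hcn2*. *Gja1*, *Gjc1*, *Scn4b*, *Hcn2* and *Hcn4* kept their direction in each setting that tested them, and with each heart left out in turn their log2 differences ran from 0.39 to 0.67, 0.02 to 0.16, −1.15 to −0.71, −0.42 to −0.08 and −0.54 to −0.33. Those of *Gja5* (−0.22 to 0.17), *Cacna1g* (−0.11 to 0.28) and *Cacna1h* (−0.16 to 0.36) changed sign, in 4, 2 and 3 of the 10 fits. With all hearts these differences were 0.04, 0.12 and 0.10, each smaller than its SE (0.27, 0.33 and 0.39). Why the hearts differed was not tested. *Hcn4* was at −0.22 with a pseudocount of 1, and its unadjusted p ran up to 0.114, with 2 of 10 fits that left out a heart under 0.05. The TPM scale moved the median of all genes to 0.09 from 0.01.

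Of all genes tested, 10 had an adjusted p under 0.05. With a mean of at least 5 FPKM this was 2, with array weights 18, without the 3 hearts with high atrial markers 5, and without genes of the X, Y and mitochondrial chromosomes 0, where 924 genes had an unadjusted p under 0.05. Leaving out each heart gave 5 to 13, with 5 without vehicle 2. With the replicate number as a block it was 4 and no member passed. Same-numbered hearts correlated at −0.154 to −0.0209 and no pair was mutually closest. The labels give no pairing, and this check could not exclude one. Count tests in edgeR and DESeq2 were not run, since the deposited unit is FPKM. Depth limits *Hcn4*, *Cacna1g* and *Cacna1h* most, with 39 to 59 fragments in their lowest hearts.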
